A study of Mus musculus with 9 samples.

Results

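Genes for the synthesis, packaging, uptake and breakdown of neurotransmitters were examined on 9 mouse expression arrays (Illumina bead arrays, where each probe gives a fluorescence intensity). The 10 genes were Chat, Slc18a3, Slc5a7 and Ache of the acetylcholine pathway, Nos1 of the nitric oxide pathway, Th, Ddc, Dbh and Slc18a2 of the monoamine pathway, and Slc17a6 for glutamate. Members were chosen by name, as every probe whose symbol in the platform annotation is one of these genes. This gave 11 probes for the 10 genes, of 25696 probes and 16592 named genes in all. Chat had a pair of probes, and the brighter one stands for it below. All 10 genes passed the filter on low values, a detection p-value of 0.05 or below on at least 1 array.

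All samples came from FVB mice carrying hGFAP-eGFP, a transgene in which the human GFAP promoter drives a green fluorescent protein, at about postnatal day 7. Cells of the small intestinal muscle layer with its myenteric plexus were sorted for this fluorescence, with the animals of a litter pooled, and each of the 3 replicates of a group is 1 litter. GFAP-glia in vivo went from the sorter straight into lysis buffer. Untreated gliospheres are spheres that grew from the sorted cells over about 2 weeks under low oxygen with EGF and bFGF. LPS-stimulated gliospheres are sister wells given lipopolysaccharide from E. coli O26:B6, a component of the bacterial outer membrane, at 100 µg/ml for 48 h, and each untreated replicate comes from the same preparation as the LPS-stimulated replicate of its number. The sort selects for activity of the transgene's promoter, not for a cell type proven otherwise.

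Acetylcholine and nitric oxide are the principal excitatory and inhibitory transmitters of enteric motor neurons. A neuron is called cholinergic when it holds choline acetyltransferase (Chat) together with the vesicular acetylcholine transporter (Slc18a3) and the high-affinity choline transporter (Slc5a7), and nitrergic when it holds neuronal nitric oxide synthase (Nos1). Noradrenaline is made in 3 enzymatic steps by tyrosine hydroxylase (Th), aromatic L-amino acid decarboxylase (Ddc) and dopamine beta-hydroxylase (Dbh), and the vesicular monoamine transporter VMAT2 (Slc18a2) brings monoamines into vesicles. Slc17a6 encodes VGLUT2, which loads glutamate into vesicles.

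Levels are given as log2 of the intensity after background correction and variance stabilizing normalization (VSN), and differences between groups are differences of these values with the standard error of limma's fit. Adjusted p-values come from limma's moderated test, with the Benjamini-Hochberg method applied to the 14794 probes tested. If no array of a group had the probe above background, the fold change is given as a lower bound. For it, each dim array counts with the lowest level of any probe detected on it (4.55 to 4.90 over the 9 arrays), or with the probe's own level where that is higher, and the mean of these is set against the mean of the brighter group. Levels of different probes are not compared with each other. In such bulk RNA, fewer cells of a type and less RNA per cell cannot be told apart.

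The arrays detected 46.6 to 50.1% of their probes, and median signals before normalization were 123.8 to 215.5. In vivo replicate 1 stood apart from the other in vivo arrays, with correlations over the probes tested of 0.91 and 0.90 to them, against 0.96 between those arrays. On it, 169 of 10795 genes were over 2 log2 units above both other in vivo arrays, against 16 and 48 genes for the other in vivo arrays. The median range over 3 arrays of a probe was 1.06 log2 units in vivo, 0.49 in untreated and 0.44 in LPS-stimulated gliospheres. Gfap, the gene whose human promoter drove the sort, was above background on 0 of 3 in vivo arrays and on 3 of 3 arrays of either gliosphere group, and was lower in vivo than in untreated gliospheres by at least 9.69-fold (adjusted p = 0.000163). Of the other glial markers, S100b was above background on 2 of 3 in vivo arrays, and Ednrb and Entpd2 on 3 of 3.

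Transmitter genes were higher in GFAP-glia in vivo than in untreated gliospheres. Of the 10 members 8 passed the test, all of them higher in vivo, where 12.9% of the 10795 genes tested were higher and 13.2% lower. For 9 of the 10 members every in vivo array lay above every untreated array, which held for 19.3% of all genes. Against LPS-stimulated gliospheres, 7 of the 10 members were higher in vivo and none was lower, with 14.5% of all genes higher and 14.8% lower. There, every in vivo array lay above every gliosphere array for 10 of 10 members, against 20.5% of all genes. These counts of separated members include Th, above background on 1 in vivo array and no gliosphere array. The second includes Ddc, whose groups lay 0.01 log2 units apart, and neither gene passed the test. The median difference over the members was 3.84 log2 units in the first comparison and 3.46 in the second. Over all genes it was -0.09 and -0.08. Bounds left both medians of the members unchanged, since the middle genes (Nos1 and Slc5a7, then Ache and Slc5a7) carry no bound. Both comparisons use the same in vivo arrays. Without in vivo replicate 1, 10 and 8 members passed the test, the 10 including Th with no array above background. The genes past it then numbered 3489 and 3902 of 10795, against 2808 and 3166 with all arrays.

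**Figure D1:**
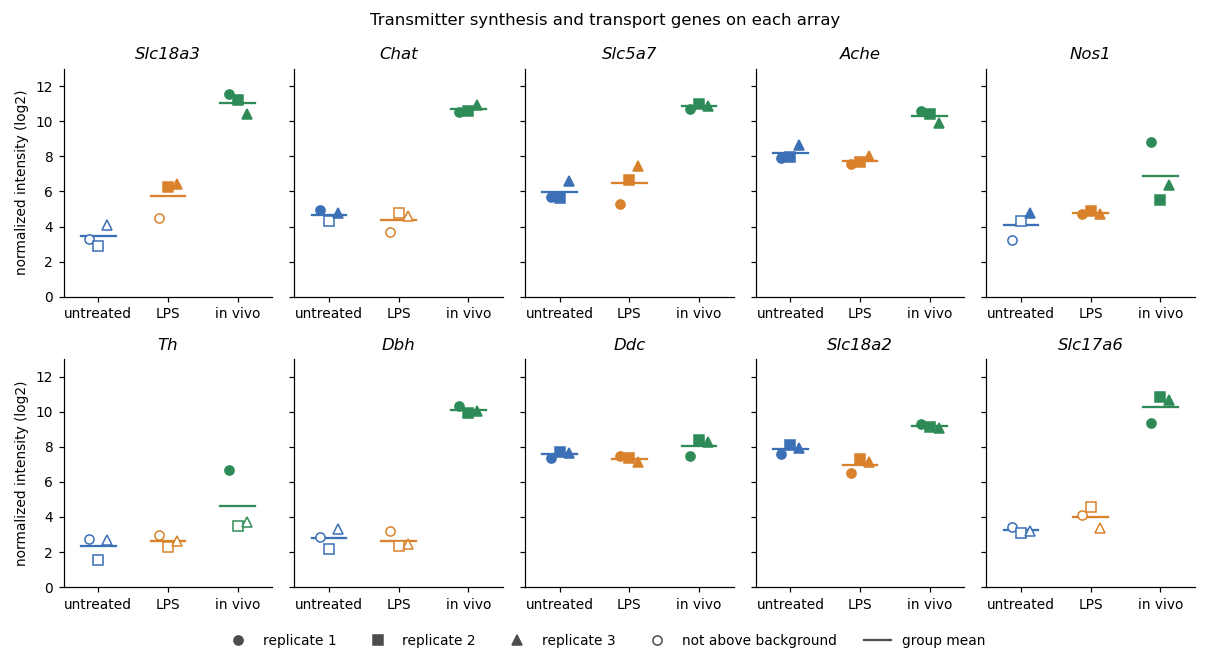
Normalized intensity (log2, vertical axis) of the brightest probe of each of the 10 genes on each of the 9 arrays, by group (horizontal axis), with 1 symbol shape per replicate, open symbols for arrays where the probe was not above background and a line for the group mean. Dbh, Slc17a6, Chat, Slc18a3 and Slc5a7 have in vivo means of about 10 to 11 log2 units and lie far below this in both gliosphere groups, while Nos1 and Th are spread widely in vivo, with replicate 1 highest.

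The cholinergic genes were high in all in vivo arrays. Slc18a3 was at 11.53, 11.19 and 10.42 in vivo in replicates 1, 2 and 3. In untreated gliospheres it was at 3.31, 2.89 and 4.10, above background on none of the 3 arrays, and in LPS-stimulated gliospheres at 4.48, 6.27 and 6.45, above background on 2 of 3. The in vivo arrays did not overlap with either gliosphere group. The difference from untreated gliospheres was 7.61 ± 0.56 log2 units (SE, adjusted p = 3.21e-05), a bound of at least 85-fold. Against LPS-stimulated gliospheres it was 5.32 ± 0.56 (adjusted p = 0.000163), or 39.8-fold, and 4.69 without LPS replicate 1, the dimmest of that group.

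Chat, the enzyme that joins choline and acetyl-CoA, was at 10.54, 10.56 and 10.95 in vivo. In untreated gliospheres its brighter probe was at 4.93, 4.32 and 4.78, above background on 2 of 3 arrays, and in LPS-stimulated gliospheres at 3.70, 4.77 and 4.59, above background on none. The in vivo values were tightly grouped and stood over 5 log2 units above all others. The difference from untreated gliospheres was 6.01 ± 0.32 (adjusted p = 7.4e-06), or 64.3-fold, and that from LPS-stimulated gliospheres was 6.33 ± 0.32 (adjusted p = 4.14e-06), at least 63.3-fold. The dimmer Chat probe moved the same way, from means of 3.22 and 3.36 in the gliosphere groups, where it was above background on none of the arrays, to 6.94, 6.14 and 7.11 in vivo (at least 4.26-fold over untreated gliospheres, adjusted p = 0.000312).

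In the RefSeq annotation Slc18a3 lies wholly inside the Chat gene on the same strand, an arrangement known as the cholinergic gene locus. By the RefSeq starts of GRCm38.p6 the first base of Slc18a3 is 1059 bases downstream of that of Chat. Their promoter windows, from 250 bases before to 50 bases after the start, are shown because these neighbouring genes had the largest differences of the 4 cholinergic genes. Capitals mark ATTA, the core recognized by homeodomain factors such as Phox2a, on either strand, and TGACGTCA, the full cAMP response element. The Chat window (chr14:32465860-32466159, minus strand) holds neither, and the Slc18a3 window (chr14:32464801-32465100, minus strand) holds 1 ATTA.
Chat: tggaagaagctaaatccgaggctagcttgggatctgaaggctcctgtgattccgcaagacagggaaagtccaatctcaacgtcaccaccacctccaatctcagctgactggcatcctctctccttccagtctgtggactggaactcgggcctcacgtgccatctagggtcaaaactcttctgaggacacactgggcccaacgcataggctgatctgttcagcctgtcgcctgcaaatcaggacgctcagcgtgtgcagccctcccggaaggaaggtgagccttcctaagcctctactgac
Slc18a3: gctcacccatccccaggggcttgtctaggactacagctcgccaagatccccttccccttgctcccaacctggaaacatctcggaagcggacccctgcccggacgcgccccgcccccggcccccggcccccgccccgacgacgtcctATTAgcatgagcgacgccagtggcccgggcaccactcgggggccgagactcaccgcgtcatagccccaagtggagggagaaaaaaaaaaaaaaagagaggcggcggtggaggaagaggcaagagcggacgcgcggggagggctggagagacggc

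The window of Slc18a3 is 67% G and C and holds GGGCGG, the GC box, in 2 places on its reverse strand, whereas that of Chat is 55.7% G and C and holds none. GGGCGG occurs in 35.7% of the 32851 mouse promoter windows, whose median G and C content is 52.7%. These matches describe the letters only.

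Slc5a7, which returns choline to the nerve terminal, was measured on every array. It was at 10.68, 10.99 and 10.89 in vivo, at 5.66, 5.62 and 6.60 in untreated and at 5.30, 6.68 and 7.46 in LPS-stimulated gliospheres. The gliosphere groups overlapped, and both lay below the in vivo arrays. In vivo it was 29.7-fold above untreated gliospheres (4.89 ± 0.51, adjusted p = 0.000203) and 20.7-fold above LPS-stimulated gliospheres (4.37 ± 0.51, adjusted p = 0.000295).

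Ache, the esterase that breaks down acetylcholine, was above background on all 9 arrays and had the smallest difference of the cholinergic genes. It was at 10.57, 10.44 and 9.90 in vivo, at 7.93, 7.99 and 8.62 in untreated and at 7.59, 7.66 and 8.03 in LPS-stimulated gliospheres. The in vivo arrays lay above all gliosphere arrays. The difference was 2.12 ± 0.29 from untreated (4.36-fold, adjusted p = 0.000867) and 2.54 ± 0.29 from LPS-stimulated gliospheres (5.83-fold, adjusted p = 0.000249).

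Nos1, which makes nitric oxide from arginine, varied among the in vivo arrays. It was at 8.82 in replicate 1 and at 5.49 and 6.38 in replicates 2 and 3, a range of 3.33 log2 units where the median probe had 1.06. In untreated gliospheres it was at 3.23, 4.31 and 4.77, above background on 1 of 3 arrays, and in LPS-stimulated gliospheres at 4.69, 4.89 and 4.71, above background on 3 of 3. All in vivo arrays lay above all gliosphere arrays, the dimmest by 0.61 log2 units. The difference from untreated gliospheres passed the test (2.79 ± 0.75, adjusted p = 0.0247), its size resting in part on the 2 untreated levels that were not above background, and that from LPS-stimulated gliospheres did not (2.13 ± 0.75, adjusted p = 0.0617). Without in vivo replicate 1 the differences were 1.83 (adjusted p = 0.0198) and 1.17 (adjusted p = 0.0826). The call against untreated gliospheres was lost without untreated replicate 1 (2.36, adjusted p = 0.0897) or 2 (2.89, adjusted p = 0.0633), and that against LPS-stimulated gliospheres was gained without in vivo replicate 2 (2.83, adjusted p = 0.0196).

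The monoamine genes fell into unlike patterns. Dbh, which turns dopamine into noradrenaline inside vesicles, was at 10.31, 9.94 and 10.01 in vivo. It was above background on none of the 6 gliosphere arrays, at 2.87, 2.20 and 3.30 in untreated and 3.18, 2.32 and 2.47 in LPS-stimulated gliospheres. The in vivo arrays lay within 0.38 log2 units of each other and over 6 units above the brightest gliosphere array. The difference was 7.30 ± 0.34 from untreated (at least 43.6-fold, adjusted p = 4.26e-06) and 7.43 ± 0.34 from LPS-stimulated gliospheres (at least 41.9-fold, adjusted p = 3.04e-06).

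Th, the rate-limiting enzyme of catecholamine synthesis, did not pass the test in either comparison. It was at 6.65 in vivo replicate 1, and at 3.51 and 3.73 in replicates 2 and 3, where it was not above background. It was not above background on any gliosphere array either, at 2.75, 1.54 and 2.70 in untreated and 2.95, 2.27 and 2.65 in LPS-stimulated gliospheres. One array thus held all the signal above background. The difference from untreated gliospheres was 2.30 ± 0.75 (adjusted p = 0.0535) and from LPS-stimulated gliospheres 2.01 ± 0.75 (adjusted p = 0.077). Without in vivo replicate 1 they were 1.29 (adjusted p = 0.0414) and 1.00 (adjusted p = 0.0858), from arrays with no level above background. The difference from untreated gliospheres passed the test in 6 of 18 alternatives, among them those without in vivo replicate 2 (2.86, adjusted p = 0.0311) or 3 (2.75, adjusted p = 0.044). In vivo replicate 1, the array that stood apart, had the highest in vivo level of Th, Nos1, Slc18a3, Ache, Dbh and Slc18a2. It had the lowest of Chat, Slc5a7, Ddc and Slc17a6, and its part in these values was not tested.

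Ddc, which makes dopamine from L-DOPA and serotonin from 5-hydroxytryptophan, was above background on all 9 arrays. It was at 7.47, 8.38 and 8.25 in vivo, at 7.37, 7.72 and 7.67 in untreated and at 7.46, 7.35 and 7.14 in LPS-stimulated gliospheres. In vivo and untreated arrays overlapped, and those of LPS-stimulated gliospheres lay 0.01 log2 units or more below the in vivo arrays. The differences did not pass the test (0.45, 95% interval -0.18 to 1.08, adjusted p = 0.271, and 0.72, 0.08 to 1.35, adjusted p = 0.0882). Without in vivo replicate 1, its dimmest in vivo array, they were 0.73 (adjusted p = 0.0222) and 1.00 (adjusted p = 0.00551).

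Slc18a2, which also packages histamine and serotonin, was above background on all 9 arrays, and no 2 of the 3 groups overlapped. It was at 9.30, 9.12 and 9.06 in vivo, at 7.56, 8.11 and 7.91 in untreated and at 6.50, 7.30 and 7.14 in LPS-stimulated gliospheres. In vivo it was 2.46-fold above untreated (1.30 ± 0.27, adjusted p = 0.0081) and 4.54-fold above LPS-stimulated gliospheres (2.18 ± 0.27, adjusted p = 0.000437).

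The promoter windows of Dbh, Th and Slc18a2 are shown because the genes of this pathway differed in vivo to such unequal extents. The Dbh window (chr2:27165257-27165556, plus strand) holds ATTA in 3 places, starting 157, 147 and 65 bases before the start. The Th window (chr7:142899946-142900245, minus strand) holds it in 2 places and TGACGTCA 45 bases before the start. The Slc18a2 window (chr19:59260628-59260927, plus strand) holds ATTA once and TGACGTCA 4 bases before the start.
Dbh: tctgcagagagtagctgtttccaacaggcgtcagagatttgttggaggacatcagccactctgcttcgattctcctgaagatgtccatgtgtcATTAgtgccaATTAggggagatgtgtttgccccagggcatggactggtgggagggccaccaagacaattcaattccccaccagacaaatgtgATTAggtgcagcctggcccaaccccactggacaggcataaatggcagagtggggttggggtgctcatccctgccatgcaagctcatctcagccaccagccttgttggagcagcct
Th: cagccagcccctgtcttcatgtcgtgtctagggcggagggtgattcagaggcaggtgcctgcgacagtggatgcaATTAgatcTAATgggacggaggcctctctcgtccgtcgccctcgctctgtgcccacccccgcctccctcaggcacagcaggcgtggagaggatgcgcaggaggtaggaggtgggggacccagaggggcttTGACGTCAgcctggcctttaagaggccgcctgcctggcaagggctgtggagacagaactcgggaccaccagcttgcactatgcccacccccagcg
Slc18a2: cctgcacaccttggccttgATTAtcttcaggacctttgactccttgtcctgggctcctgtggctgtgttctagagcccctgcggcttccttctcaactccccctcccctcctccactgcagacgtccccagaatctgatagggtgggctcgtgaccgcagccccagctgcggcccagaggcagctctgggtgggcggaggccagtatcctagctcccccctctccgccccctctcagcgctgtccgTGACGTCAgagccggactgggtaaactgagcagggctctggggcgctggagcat

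TGACGTCA, read on both strands, occurs in 1.79% of the 32851 promoter windows and, of the 12 windows of the 10 members, in those of Th and Slc18a2. ATTA is common: it occurs in 58% of all windows and in 9 of the 12 member windows, which belong to 7 of the 10 members. The windows of Ddc, not shown, hold ATTA as well, in 2 and 3 places. These matches describe the letters only.

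Slc17a6 was at 9.33 in in vivo replicate 1 and at 10.84 and 10.68 in replicates 2 and 3. It was above background on none of the gliosphere arrays, at 3.44, 3.08 and 3.19 in untreated and at 4.10, 4.58 and 3.35 in LPS-stimulated gliospheres. Here in vivo replicate 1 was the lowest of its group, unlike for Nos1 and Th. The difference was 7.05 ± 0.44 from untreated (at least 50-fold, adjusted p = 1.49e-05) and 6.28 ± 0.44 from LPS-stimulated gliospheres (at least 48-fold, adjusted p = 1.94e-05).

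**Figure D2:**
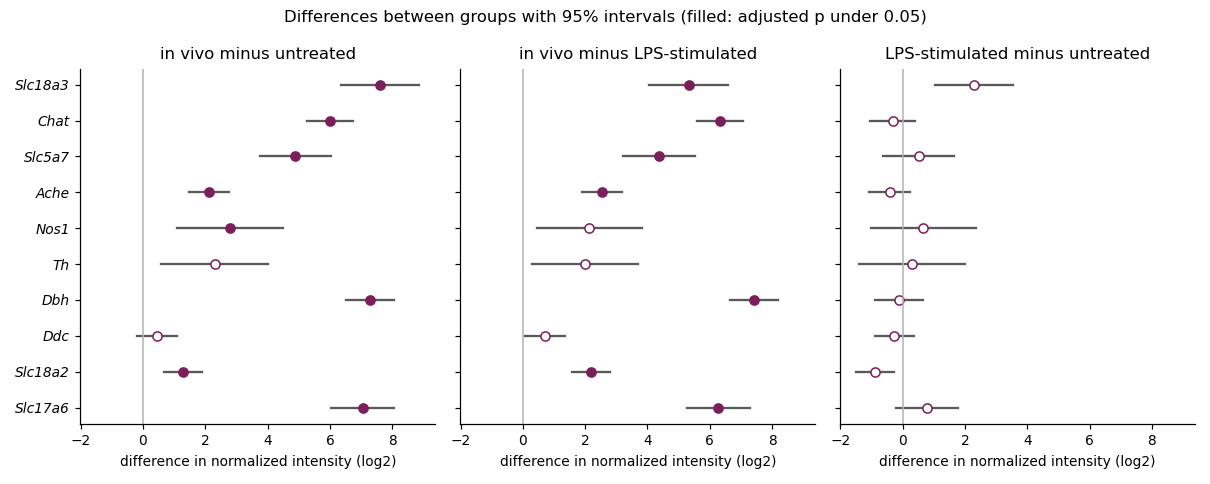
Difference in normalized intensity (log2, horizontal axis) of each of the 10 genes in the 3 comparisons, with 95% intervals as lines and filled circles where the adjusted p is under 0.05. All points of both in vivo panels lie to the right of 0, from 0.45 to 7.61 and from 0.72 to 7.43, and no point is filled in the LPS panel.

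The size of these differences depended on the scale. On the authors' normalized intensities, whose median per array was 164.2 to 164.4, the differences between in vivo and untreated arrays were smaller throughout. Slc18a3 differed by 4.15, Chat by 3.56, Slc5a7 by 3.41, Slc17a6 by 3.41, Dbh by 3.35, Ache by 1.82 and Slc18a2 by 1.00 log2 units, all past the test. Nos1 differed by 0.96 there and was not past it (adjusted p = 0.0767).

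No member passed the test for LPS. In LPS-stimulated against untreated gliospheres 0 of 10 members were past limma's test, 2 had an unadjusted p under 0.05, and 0 were past the test under an ordinary linear model. Of all genes 0.76% were higher and 0.204% lower. The median difference of the members was 0.08 log2 units, or 0.00 with genes not above background set to their bounds, beside -0.01 for all genes. The pair with the unadjusted p were vesicular transporters, Slc18a3 and Slc18a2, with differences of opposite sign.

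For Slc18a3 the mean was 2.30 ± 0.56 log2 units above that of untreated gliospheres (adjusted p = 0.146 in limma's test), at least 2.13-fold. The differences within litters were 1.17, 3.37 and 2.35, all against untreated levels that were not above background, and in the first litter neither array was above it. Its LPS-stimulated arrays lay above its untreated ones, as in 9.88% of all genes. Without LPS replicate 1, the array where it was not above background, it passed the test (2.92, adjusted p = 0.0363). The other alternatives on these values gave an adjusted p of 0.0663 to 0.517, and the authors' intensities gave 0.50 (adjusted p = 0.906). Chat, whose gene holds Slc18a3, differed by -0.32, and its untreated and LPS-stimulated arrays overlapped.

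For Slc18a2 the difference was -0.88 ± 0.27 log2 units (adjusted p = 0.315 in limma's test). It was -1.06, -0.81 and -0.77 in the 3 litters, and the LPS-stimulated arrays lay below the untreated ones, as in 9.86% of all genes. With the gliosphere arrays alone and the litter as a block the adjusted p was 0.101 for Slc18a2 and 0.127 for Slc18a3, with 2 residual degrees of freedom. The same fit on the authors' intensities, chosen after seeing the data, gave 0.00481 for Slc18a2 (-0.49) and 0.0199 for Slc18a3 (0.50), with 1002 genes past the test (47.1% of them higher). The fit of the same form on the VSN values had 90 genes (72.2% higher), the authors' intensities over all 9 arrays had 133 (83.5%) and the VSN values over all 9 arrays had 104 (78.8%).

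Intervals for the other members in this comparison were wide. The 95% interval was -1.05 to 0.41 for Chat, -0.63 to 1.66 for Slc5a7, -1.07 to 0.23 for Ache, -1.03 to 2.35 for Nos1 and -0.90 to 0.37 for Ddc. The differences of Ache were -0.35, -0.33 and -0.59 in the 3 litters, with overlapping groups. Dbh, Th and Slc17a6 were not above background on any gliosphere array, so that a decrease with LPS could not have been detected and no array showed a rise above background.

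**Figure D3:**
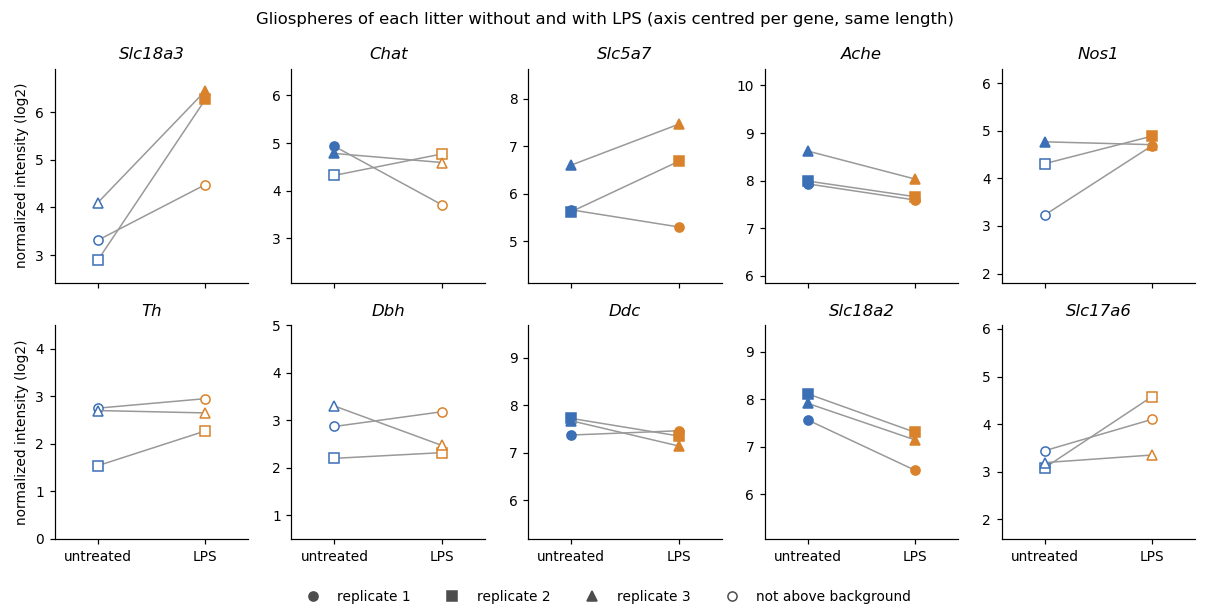
Normalized intensity (log2, vertical axis, drawn with the same length for each gene) of the 10 genes in untreated and LPS-stimulated gliospheres (horizontal axis), with a line for each of the 3 litters and open symbols where the probe was not above background. All 3 lines slope upward for Slc18a3, from untreated levels not above background, and downward for Slc18a2. The 3 lines also run down for Ache, less steeply than for Slc18a2, and up for Slc17a6, the latter on arrays not above background.

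Other genes of the same pathways moved in both directions. Of 12 tested genes for other transmitters, 4 were higher and 2 lower in vivo than in untreated gliospheres, with a median difference of 0.34 (0.29 at bounds). The plasma membrane transporters for dopamine and serotonin, Slc6a3 and Slc6a4, were higher by at least 2.11-fold (adjusted p = 0.000438) and at least 1.53-fold (adjusted p = 0.00135), and the GABA-synthesizing enzyme Gad1 by at least 1.87-fold (adjusted p = 0.00154). Slc1a3, a glutamate transporter of astrocytes and other glia, was 21-fold lower in vivo (-4.39 ± 0.66, adjusted p = 0.00163), opposite to Slc17a6. Its in vivo levels were spread widely, at 5.21, 7.5 and 8.19 in replicates 1, 2 and 3, against 11.08, 11.37 and 11.62 in untreated gliospheres. Tph1 and Tph2, which start serotonin synthesis, and Hdc, which makes histamine, were not above background on any array, although Ddc and Slc18a2, which serve these pathways too, were above it on all 9. The noradrenaline transporter Slc6a2 was not above background in vivo, where Dbh was at about 10 log2 units.

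Of 16 tested genes for cofactors and substrates, 4 were higher and 2 lower in vivo than in untreated gliospheres (median 0.03, or -0.02 at bounds). Tetrahydrobiopterin is the cofactor of both Th and Nos1, and 3 of those higher serve its synthesis or recycling. Gch1, its first enzyme, was 4.16-fold higher (2.06 ± 0.39, adjusted p = 0.00499), Spr, its last, 2.29-fold (adjusted p = 0.0362) and Pcbd1 1.99-fold (adjusted p = 0.0261). Pts and Qdpr of the same pathway differed by -0.18 and 0.08 and did not pass. Of the lower genes Slc44a1 carries choline across membranes (2.66-fold, adjusted p = 0.00607) and Slc7a5 large neutral amino acids such as tyrosine (3.44-fold, adjusted p = 0.00932).

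On the receiving side of nitric oxide, Gucy1a1 and Gucy1b1, the subunits of the soluble guanylate cyclase that senses it, were 18.5-fold (4.21 ± 0.39, adjusted p = 0.000117) and 6.65-fold (2.73 ± 0.23, adjusted p = 6.36e-05) higher in vivo than in untreated gliospheres. In that list 3 of 11 tested genes were higher and 0 lower, with a median difference of 0.31 (0.14 at bounds). Prkg1 of the list had a mean of 6.30 in vivo and 6.88 in untreated gliospheres, not past the test. The inducible synthase Nos2 was above background on 1 of 9 arrays, an LPS-stimulated one, and differed by 0.53 between LPS-stimulated and untreated gliospheres, not past the test.

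Of 19 tested receptors 10 were higher and 1 lower in vivo than in untreated gliospheres, with a median of 0.98 (0.81 at bounds). The nicotinic subunits Chrnb4 (13.5-fold, adjusted p = 0.00191), Chrna4 (4.29-fold, adjusted p = 0.00618) and Chrna3 (4.09-fold, adjusted p = 0.000458) were among them, as were Htr2b (at least 34.9-fold, adjusted p = 6.55e-06) and P2rx2 (11.9-fold, adjusted p = 0.00655). The muscarinic receptor Chrm3 was lower, by at least 6.88-fold (adjusted p = 0.000103). The other 8 receptors did not pass the test.

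Among 8 tested transcription factors, 3 were higher and 2 lower in vivo than in untreated gliospheres, with a median difference of -0.17 (the same at bounds). Phox2a, a homeodomain factor needed for noradrenergic and enteric neurons, was at 13.12, 13.04 and 12.83 in vivo and at 7.86, 7.91 and 8.47 in untreated gliospheres (30.2-fold, adjusted p = 9.4e-06). Tfap2a, a factor of the neural crest, was 15.6-fold lower (adjusted p = 5.05e-05). The 5 pathway lists had 0 genes past the test between LPS-stimulated and untreated gliospheres.

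The genes most like the members over the 9 arrays were Tac1 (r = 0.9951), which encodes substance P, Scgn (0.9943), the calcium-binding protein secretagogin, and Esyt3 (0.9931), Rnf208 (0.9925) and Dclk3 (0.9924). The measure was Pearson's r between each of 9430 genes and the mean standardized level of the 9 members above background on at least 3 arrays. Since 2 groups lie low and 1 high, and all genes share the same arrays, this r reflects mainly the contrast between in vivo and gliosphere arrays. Tac1 had a mean of 5.45 in untreated gliospheres, 5.75 in LPS-stimulated gliospheres and 12.57 in vivo, and Scgn of 3.79, 3.25 and 11.35.

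Markers of several other cell types, though not of all those examined, were higher in vivo as well. Of 11 tested markers of enteric neurons, 7 were higher and 0 lower in vivo than in untreated gliospheres (median 1.13), and all 11 were above background on all 3 in vivo arrays. Their mean level was 11.05 to 11.38 on the in vivo arrays, 9.21 to 9.62 on untreated and 9.24 to 9.57 on LPS-stimulated arrays. The neuronal intermediate filament genes Nefm (at least 44.6-fold, adjusted p = 1.15e-05) and Prph (80.3-fold, adjusted p = 7.17e-06) had differences in the range of those of Chat and Dbh, while Elavl4, Ret and Gap43 did not pass the test (0.19, -0.04 and -0.66). Snap25 and Nefl, neuronal genes also on that list, were not above background on any array. Of 7 tested glial markers 3 were lower in vivo (Gfap, Cdh19, Sox2) and 1 was higher (Fabp7), with a mean level of 7.22 to 7.55 in vivo and 8.48 to 9.19 in untreated gliospheres. The part of neuronal RNA in the in vivo levels of the members was not tested.

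Smooth muscle markers were higher in vivo for 3 of 6 tested (Actg2, Myh11 and Des), at a mean level of 8.58 to 10.35 in vivo and 6.19 to 6.70 in untreated gliospheres, with Cnn1 not above background on any array. That level was highest on in vivo replicate 1, as were those of the fibroblast and interstitial cell of Cajal markers. For the enteric neuron markers (11.38, 11.36 and 11.05 in replicates 1, 2 and 3) replicate 1 was highest by little. The same held for the epithelial markers (5.31, 5.12 and 5.28). The glial, enteroendocrine, macrophage and endothelial markers had their highest mean on another in vivo array. Macrophage and leukocyte markers were higher for 3 of 5 tested (Adgre1, Cd3e and Cd79a), at 6.26 to 6.44 against 4.49 to 5.50, with Ptprc not above background on any array. Lyz2 of the same list had means of 5.39 in untreated gliospheres, 7.61 in LPS-stimulated gliospheres and 3.90 in vivo, and was lower in vivo than in LPS-stimulated gliospheres (-3.71 ± 0.83, adjusted p = 0.0095). Of the enteroendocrine markers, cells that use Ddc and monoamine transporters as well, 3 of 6 tested were higher (Chga, Chgb and Sct), at 7.52 to 8.09 against 5.74 to 6.25, while Tph1, Neurod1 and Neurog3 were above background on none of the 9 arrays. Mast cells hold Slc18a2 and Hdc, and 9 of 9 measured mast cell markers were above background on none of the arrays. Against untreated gliospheres no marker passed the test among 4 tested for intestinal epithelium and 4 for endothelium. Against LPS-stimulated gliospheres 1 epithelial marker was higher in vivo and 1 endothelial marker lower. Of 6 tested fibroblast markers 1 was higher (Dcn) and 1 lower (Lum) in vivo than in untreated gliospheres. Of 2 tested markers of interstitial cells of Cajal 1 was higher (Ano1) and 1 lower (Etv1) there. Ano1 was above background on only 1 in vivo array and on no gliosphere array, with an in vivo mean of 4.5, near the detection limit. The part of these other cell types in the members' levels was not tested.

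**Figure D4:**
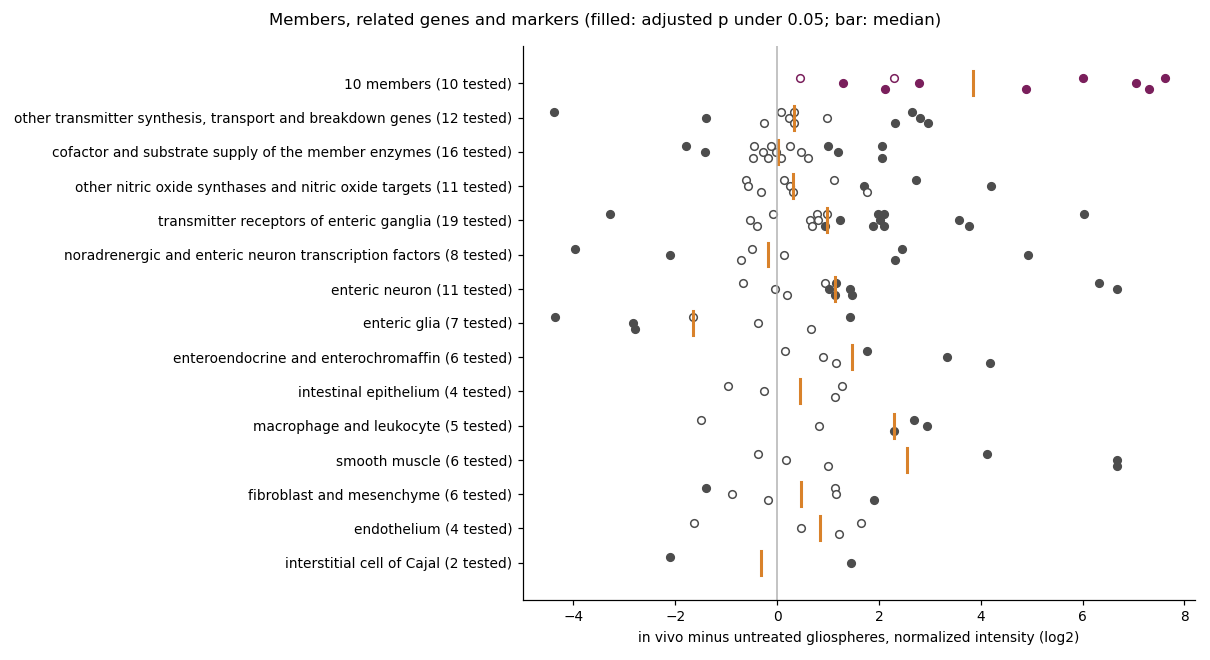
Difference between in vivo and untreated arrays (log2, horizontal axis) of the 10 members and of each tested gene of the pathway and marker lists (vertical axis, with the number tested), filled where the adjusted p is under 0.05, with a bar at the median of each list. The members have the rightmost median (3.84), that of enteric neuron markers is 1.13 and that of glial markers -1.65.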

How the data were processed

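Per the labels, RNA of all 9 samples was hybridized to Illumina mouse arrays. The authors deposited signal intensities from GenomeStudio (version not given in the sources used here), not normalized, with a detection p-value deposited for each, and a second table of normalized intensity on a linear scale. In both, most values were printed without their decimal point (95.7 to 98.2% of cells per array of the signal table). It was put back from the rising relation between the tables, which left 1 probe unsettled. A test on simulated tables restored 77091 of 77091 cells.

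Background was corrected by normexp with control probe moments taken from the detection p-values, and VSN, which the study's methods name, was fitted by a script, since no package for it was at hand. Another starting point changed 6 of 231264 values by over 0.1. Tests used probes that have a symbol and a detection p of 0.05 or below on at least 1 array, and the study's own removal of poor probes was not applied. limma (3.58.1) in R fitted group means over 9 arrays (6 residual and 3.11 prior degrees of freedom), with a threshold of 0.05 on adjusted p-values. The fit was tested on simulated data. Log2 values are computed here from the deposited intensities. Each gene is given by its brightest probe. Names came from the platform annotation, updated by gene identifier for 23961 probes, and 1719 had no symbol. Promoter windows are from RefSeq (GRCm38.p6) and all 10 members matched. The arrays' number limits precision.

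Replicates of the same number in the gliosphere groups share a preparation by the design. About their group means, arrays of the same number correlated at 0.16, 0.09 and 0.17, against -0.14 to -0.02 between numbers. The labels tie no in vivo array to these. Fits with a replicate block, other normalizations, filters and left-out arrays were tried. The named genes are all members and the 5 genes most like the members. Added are some, not all, of up to 4 genes per list and comparison with the largest differences past the test. Chrna3, Chrna4, Spr, Pcbd1 and genes named for not being detected or not passing the test were chosen after their values were seen. Members and lists were chosen with earlier results of these data known.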

Additional observations from a re-analysis of the deposited data

How the results depend on the processing

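Under each of 19 alternatives, 7 of the 10 genes (Slc18a3, Chat, Slc5a7, Ache, Dbh, Slc17a6 and Slc18a2) were higher in vivo and past the test in both in vivo comparisons, and no in vivo difference of a member changed sign. A stricter filter left Th untested. Counts of members past the test were 7 to 10 against untreated gliospheres and 7 to 9 against LPS-stimulated gliospheres. Nos1 against untreated gliospheres was also lost with only the groups compared (adjusted p = 0.0636) and with an ordinary linear model (adjusted p = 0.0762). Against LPS-stimulated gliospheres Nos1 was gained with quantile normalization (adjusted p = 0.0475), the stricter filter (0.0499) and trended, robust variances (0.0447). Th against untreated gliospheres was gained without background correction (0.0354) and with trended, robust variances (0.0476). The replicate number as a block over all 9 arrays, a number with no stated tie to the in vivo arrays, brought Th past the test (adjusted p = 0.0276 and 0.0391), with 9 and 8 members past it, and in the LPS comparison 0 members were past the test with the replicate block, over all 9 or over the gliosphere arrays. For LPS, leaving out 1 array gave 0 to 1 members past the test, and the litter block on the authors' values gave 2. Differences under LPS that were near 0 changed sign with single arrays. Leaving out 1 array, Chat ranged from -0.53 to 0.00 (highest without LPS replicate 1), its dimmer probe from -0.16 (without untreated replicate 3) to 0.54, Th from -0.11 (without untreated replicate 2) to 0.50, and Dbh from -0.43 to 0.12 (highest without untreated replicate 3, and 0.04 without LPS replicate 2). The cause was not tested. Genes past the test between LPS-stimulated and untreated gliospheres numbered 104, and 338 with array weights, 24 with an ordinary linear model, 160 with only the groups compared and 32 to 177 without 1 array. Levels near background carry the widest error: 6 members (Slc18a3, Chat, Nos1, Th, Dbh and Slc17a6) were above background on fewer than 2 arrays of at least 1 gliosphere group.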
